A study of Homo sapiens and Mus musculus with 19 samples.

Results

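The clustered protocadherins are cell-surface adhesion proteins of the cadherin superfamily, encoded on human chromosome 5 by 3 neighbouring gene arrays, PCDHA, PCDHB and PCDHG. Members were the genes whose symbols start with PCDHA, PCDHB or PCDHG in that interval. The gene table held 59 such genes, of which 53 are protein-coding (15 in PCDHA, 16 in PCDHB and 22 in PCDHG) and 6 are pseudogenes, among 15107 autosomal protein-coding genes with a known start. Another 5 entries with these prefixes (cluster and constant-region entries and an antisense RNA) are no genes of their own and were left out. In GRCh38, PCDHA spans chr5:140786140-141012347, PCDHB spans chr5:141051374-141249365 and PCDHG spans chr5:141330514-141512975, and the arrays hold 238, 275 and 369 CCGG sites.

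At each CCGG site the study counted 3 kinds of tag, for cytosine that was unmethylated, methylated (5mC) or hydroxymethylated (5hmC). It compared H1ES, a human embryonic stem cell line, with HepG2, a liver cell line from a hepatocellular carcinoma, each with 2 libraries of 1000 cells and 5 libraries of single cells. The labels name no treatment, genotype or passage for either line. Nothing in them says that replicates are separate cultures, so a p-value here is set against differences between libraries that may be purely technical.

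In the PCDHA and PCDHG arrays, each variable exon has its own promoter and is spliced to constant exons at the 3' end of the array, whereas PCDHB genes consist of a variable exon alone. Neurons switch on a small, varying set of these promoters, which gives single cells different surface identities. Promoter choice is known to depend on DNA methylation and on the insulator protein CTCF, which binds a conserved promoter element with the core CGCT. The last members of PCDHA and PCDHG, called C-type (PCDHAC1, PCDHAC2, PCDHGC3, PCDHGC4 and PCDHGC5), are less subject to this choice.

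The promoter table (RefSeq, GRCh38.p14, 250 bases before to 50 after each gene start) held 47 of the 53 protein-coding members, all on the plus strand. The missing entries are PCDHA3, PCDHA13, PCDHB6, PCDHB11, PCDHGA12 and PCDHGC5. The following 60-base stretches of the plus strand are shown because CCGG sites in the first 1000 bp behind these 4 promoters, pooled over libraries, carried less 5mC in H1ES than in HepG2. Other PCDHA members with the same letters went the other way there, with 16 of 19 5mC tags in H1ES against 11 of 22 in HepG2 in PCDHA1, 15 of 17 against 8 of 14 in PCDHA7, and 34 of 45 against 18 of 39 in PCDHA8. Capitals mark TGATGTCGCT, the 10 letters ending in the core CGCT that most PCDHA promoters share.
PCDHA2, chr5:140794766-140794825: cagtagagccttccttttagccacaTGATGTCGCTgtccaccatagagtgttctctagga
PCDHA4, chr5:140806964-140807023: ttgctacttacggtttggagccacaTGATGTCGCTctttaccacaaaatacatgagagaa
PCDHA6, chr5:140827882-140827941: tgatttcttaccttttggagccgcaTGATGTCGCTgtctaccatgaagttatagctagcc
PCDHA12, chr5:140875229-140875288: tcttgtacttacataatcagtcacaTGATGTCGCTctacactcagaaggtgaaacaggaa
Searched on both strands, TGATGTCGCT was present in 8 of 13 PCDHA promoters (PCDHA1, PCDHA2, PCDHA4, PCDHA5, PCDHA6, PCDHA7, PCDHA8 and PCDHA12), 44 to 87 bases before the start. It was present in 0 of 14 PCDHB and 0 of 20 PCDHG promoters, and in 11 of 27305 promoters of the whole table (0.0403%), a contrast that its choice from the PCDHA promoters favours. The core CGCT alone was present in 46 of 47 member promoters and in 69.4% of all promoters, so its presence sets the members little apart. These matches describe the letters only.

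These 300-base promoters hold few sites that the assay can read. A CCGG was present in 20 of 47 member promoters, against 62.6% of all promoters, and of 33 such sites 7 had a tag in any 1000-cell library. The best covered was in PCDHGA10, and 2 of its CCGG sites are shown in capitals here.
PCDHGA10, chr5:141412977-141413036: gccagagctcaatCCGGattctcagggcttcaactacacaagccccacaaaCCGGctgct
The first of these sites, at chr5:141412991, lies 4 bases after the start. There, 5mC made up 0 of 10 and 2 of 8 tags in the H1ES libraries and 3 of 5 and 2 of 5 in the HepG2 libraries. The methylation of the arrays is therefore described from sites at and behind the starts, in 2500 bp windows that cover about 1 variable exon, rather than from the promoters.

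The 1000-cell libraries held 4911898 to 6644517 tags over 2317745 sites, and 5mC made up 93.6% and 94.2% of autosomal tags in H1ES and 60.6% and 61.7% in HepG2. Within the members' windows, 190 of 531 CCGG sites (35.8%) had a tag in any of these libraries. The labels were checked by the first 2500 bp of 6 pluripotency and 6 hepatocyte genes, of which 2 and 4 had 5 tags in every library. The pluripotency genes L1TD1 and ZFP42 had higher 5mC in HepG2. The hepatocyte genes APOH, F2, HNF4A and SERPINA1 had lower 5mC there (edgeR, adjusted p at most 0.00502). Of 8285 genes at this minimum, 25.1% were called lower and 4.35% higher. Below the minimum, NANOG and DPPA4 carried 100% 5mC in every library with a tag. ALB carried 100% and 100% in H1ES and 100% and 75% in HepG2, from at most 4 tags a library.

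All 3 arrays carried less 5mC in HepG2 than in H1ES when every tag was pooled. In PCDHA, 5mC made up 82.1% and 83.4% of tags in the H1ES libraries and 57.0% and 56.0% in the HepG2 libraries (82.7% ± 0.946 against 56.5% ± 0.693, SD, n = 2). In PCDHB the shares were 89.1% and 91.5% against 47.0% and 48.6% (90.3% ± 1.66 against 47.8% ± 1.09). In PCDHG they were 88.6% and 88.9% against 62.7% and 63.2% (88.7% ± 0.214 against 63.0% ± 0.335). The lines did not overlap in any array, and each difference was many times the spread between libraries. The exact permutation test, two-sided, gave 0.333 for each array, the smallest p that 2 against 2 libraries allow. Different sites carry the tags in different libraries. Over the 8 PCDHA sites with at least 5 tags in every library, of 238 in the array, the lines differed by 0.0570 percentage points. Over such sites PCDHB and PCDHG stayed lower in HepG2, as did PCDHA as a mean of site fractions (values in the closing section).

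The arrays and their parts were tested together with edgeR as features beside 26772 bins of 100 kb. They share tags with each other and with the bins they overlap. Each whole array had lower odds of 5mC in HepG2. The log2 odds were -1.87 for PCDHA, -3.30 for PCDHB and -2.21 for PCDHG (edgeR, adjusted p of 2.84e-30, 4.40e-59 and 1.32e-40). Lower odds were no mark of the arrays, since 90.7% of all bins were called lower in HepG2 and 0.885% higher, with a median of -4.54. Measured relative to each library's own odds over all bins, PCDHA (1.40) and PCDHG (1.06) stood higher in HepG2 and PCDHB (-0.03, adjusted p = 0.884, edgeR) did not differ detectably. The median bin stood at -1.30 on that relative scale, where 54.9% of bins were called lower and 26.6% higher.

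The parts of an array went different ways. Each array was split into the first 1000 bp of its members, the next 1500 bp, the stretch between the windows and, in PCDHA and PCDHG, the 3' end behind the last member's window, which holds the constant exons. The split at 1000 bp was chosen after the values were seen.

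**Figure D1:**
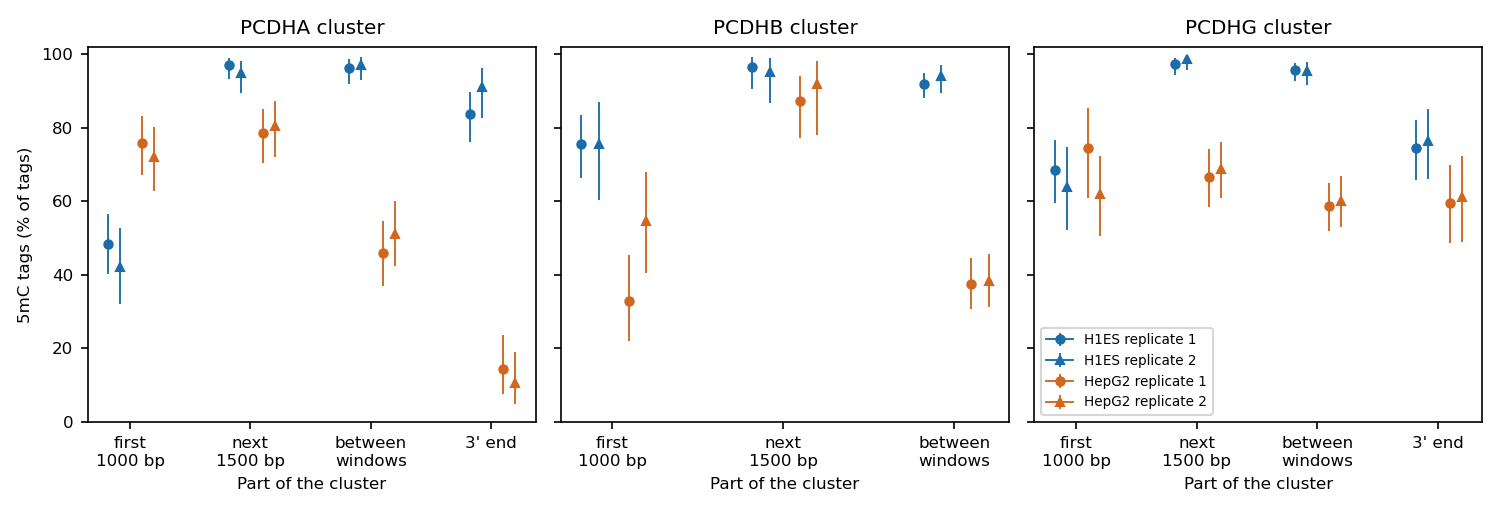
5mC as a percentage of tags (y axis) in the parts of each array (x axis) in the 4 libraries of 1000 cells; bars are exact 95% binomial intervals, which cover counting error only. In PCDHA the first 1000 bp is the only part where HepG2 lies above H1ES, and the 3' end is the part with the widest gap in the other direction.

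In the first 1000 bp of the PCDHA members, 5mC made up 48.3% and 42.1% of tags in the H1ES libraries and 75.8% and 72.1% in the HepG2 libraries (149, 95, 120 and 111 tags). Both HepG2 libraries thus stood above both H1ES libraries, with means of 45.2% ± 4.40 and 74.0% ± 2.66 (SD, n = 2). The log2 odds were 1.75 beside the bins (edgeR, adjusted p = 1.03e-08), and they stayed between 1.60 and 1.97 when any 1 library was left out. The same tags set beside the first 1000 bp of 3888 single genes gave 1.76 as counted (edgeR, adjusted p = 5.47e-04) and 2.51 relative to those genes. This second test lost the call when any 1 library was left out, with adjusted p (edgeR) of 0.172 to 0.268. Over the first 1000 bp of all 15107 genes pooled, 5mC went the other way, from 38.1% and 39.6% in H1ES to 27.4% and 28.3% in HepG2.

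As counted over the whole first 1000 bp, PCDHB and PCDHG starts did not share the PCDHA pattern. In the first 1000 bp of PCDHB, 5mC fell from 75.7% and 75.6% of tags in H1ES to 32.8% and 54.5% in HepG2 (log2 odds -2.05, edgeR, adjusted p = 7.38e-07), but turned to 1.19 relative to the bins and stood at -1.29 relative to genes' first 1000 bp. In PCDHG it was 68.6% and 64.0% in H1ES and 74.5% and 61.9% in HepG2, where the libraries of the lines overlap (log2 odds 0.01, edgeR, adjusted p = 0.985). Relative to the bins PCDHG starts stood at 3.26, and relative to genes' first 1000 bp at 0.79 (edgeR, adjusted p of 3.37e-17 and 0.298). PCDHA starts stood at 5.01 relative to the bins, so the starts of each array were higher in HepG2 on that scale.

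The PCDHG total mixed stretches that differed, and the members that carried the tags were not the same in each. In the first 500 bp behind the starts, PCDHG carried 29.8% and 37.2% 5mC in H1ES and 69.6% and 50% in HepG2, from 23 to 47 tags a library. In the next 500 bp it carried 93.2% and 100% in H1ES and 78.1% and 71.7% in HepG2. PCDHGA10 and PCDHGC3 held 2 of 26 and 1 of 19 pooled 5mC tags in H1ES in their first 1000 bp, with no tag there beyond 500 bp. These pooled values therefore show no step within a gene. In PCDHB the first 500 bp carried 68.6% and 81.8% against 16% and 25%, the reverse of PCDHG. These 500 bp steps were chosen after the values were seen and were not tested.

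The next 1500 bp, the rest of the windows that stand for the variable exons, were almost fully methylated in H1ES. There 5mC made up 97.1% and 94.96% of tags in PCDHA, 96.7% and 95.2% in PCDHB and 97.3% and 98.8% in PCDHG. In HepG2 the same stretch held 78.5% and 80.5% in PCDHA (log2 odds -2.68, edgeR, adjusted p = 8.26e-09) and 66.7% and 68.8% in PCDHG (-4.46, edgeR, adjusted p = 2.47e-27). Relative to the bins the PCDHA value turned to 0.57 and the PCDHG value was -1.22. Over the same stretch of all 15107 genes pooled, 5mC also fell, from 81.6% and 82.2% in H1ES to 62.6% and 63.9% in HepG2. The PCDHA difference, pooled over members, lay mainly in the last 500 bp of the windows. There H1ES held 100% and 100% and HepG2 64.8% and 59.1%. The 500 bp before that held 97.4% and 94.4% against 91.2% and 94.4%. The first 500 bp of this stretch held 88.5% and 82.4% against 78.9% and 93.3%. The PCDHA difference was also uneven between members. Over the 1500 bp, pooled unmethylated tags in HepG2 numbered 18 in PCDHAC1, 13 in PCDHA3, 7 in PCDHA11 and 5 in PCDHAC2. They numbered 4, 2 and 1 in PCDHA8, PCDHA10 and PCDHA13, and 0 in the other protein-coding PCDHA members, of which PCDHA6 had no tag there. Those steps and members were not tested, and the values that follow are again for the whole 1500 bp in HepG2. PCDHB held 87.3% and 91.9%, a call near the threshold (-1.58, edgeR, adjusted p = 0.0468) that turned to 1.67 relative to the bins and was lost without H1ES library 1 (adjusted p = 0.163), HepG2 library 1 (0.432) or HepG2 library 2 (0.0595), with a replicate block (0.0872) and in DESeq2 (0.0762).

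Member by member, starts in H1ES ranged widely. Of 30 members with at least 5 pooled tags in each line in their first 1000 bp, 9 had under 25% 5mC in H1ES, 15 had over 75% and the others lay between, such as PCDHA13 at 62.1% and PCDHB15 at 42.1%. In the next 1500 bp, 37 of 38 members were over 75% in H1ES and 0 were under 25%. HepG2 had 4 starts under 25% and 11 over 75%, and in the next 1500 bp 4 members under 25% and 23 over 75%. No such counts over all genes are given here, so these counts set the members apart from no other genes. Over all genes pooled, 5mC in H1ES was 38.1% and 39.6% in the first 1000 bp and 81.6% and 82.2% in the next 1500 bp.

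**Figure D2:**
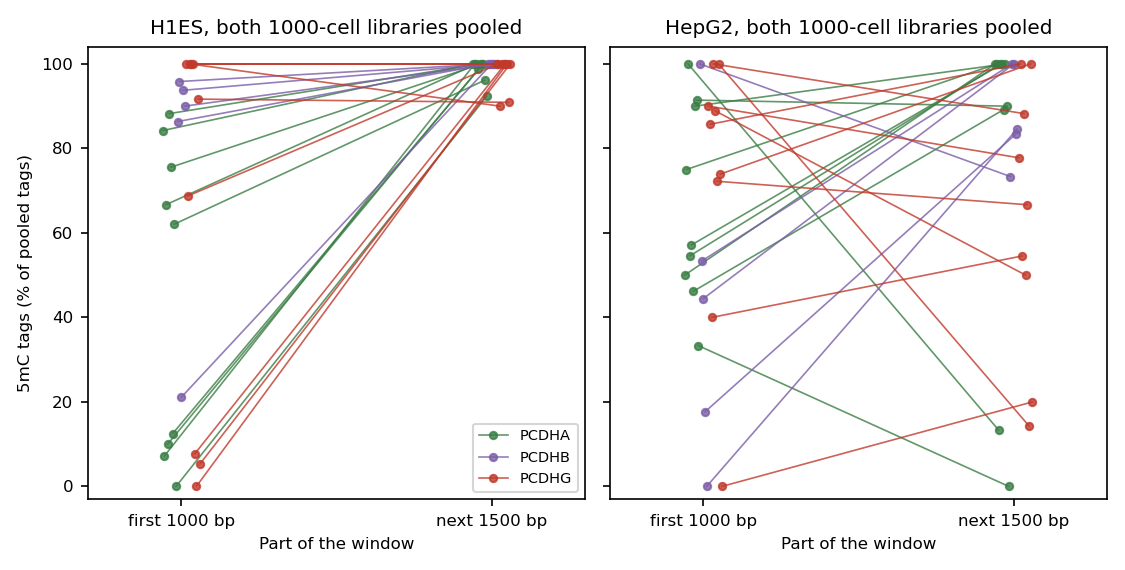
5mC as a percentage of the tags pooled over both 1000-cell libraries of a line (y axis) in the first 1000 bp and next 1500 bp (x axis) of the members with at least 5 pooled tags in both parts in both lines; each line is 1 member. In H1ES every member drawn ends at 90% or more whatever its start, whereas in HepG2 the lines cross in both directions.

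Members are named here by the rule given with the processing, or, other than the C-type genes, PCDHA4 and PCDHA8, were chosen after their values were seen. PCDHA6 had the largest log2 odds of the 10 members that could be tested in the first 1000 bp. Its first 1000 bp held 3 of 13 and 0 of 16 5mC tags in the H1ES libraries and 8 of 8 and 9 of 10 in the HepG2 libraries, so the lines did not overlap. These tags came from 2 sites, 64 bp behind the start (chr5:140828024; 2 of 17 pooled tags in H1ES and 12 of 12 in HepG2) and 270 bp behind it (chr5:140828230; 1 of 12 and 5 of 6). The log2 odds were 6.80 (edgeR, adjusted p = 5.00e-05 over first 1000 bp windows).

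PCDHA12 followed the same course. Its first 1000 bp held 1 of 14 and 2 of 10 5mC tags in H1ES and 6 of 6 and 3 of 4 in HepG2. Behind that, at 1784 bp (chr5:140877092) and 2365 bp (chr5:140877673), H1ES held 12 of 12 and 21 of 21 and HepG2 10 of 10 and 5 of 5. In H1ES the change from unmethylated to methylated lay between the site at 357 bp (0 of 14 tags) and the site at 883 bp (2 of 2).

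PCDHA2 held 0 of 7 and 1 of 7 5mC tags in its first 1000 bp in H1ES, against 6 of 8 and 3 of 4 in HepG2. Its 3 sites did not move alike: at 305 bp (chr5:140795157) HepG2 held 6 of 6 5mC tags and H1ES 0 of 6, whereas at 386 bp (chr5:140795238) HepG2 held 2 of 5 and H1ES 0 of 4. PCDHA10 had 0 of 1 and 0 of 2 tags in H1ES against 5 of 6 and 11 of 13 in HepG2, with too few tags for any test.

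PCDHA4 and PCDHA8 were the only members with 20 tags in every library over 2500 bp. PCDHA4 held 85.5% and 93.5% 5mC in H1ES and 92.3% and 95.2% in HepG2, where the lines overlap (edgeR, adjusted p = 0.328). It carried 1 of 8 and 0 of 2 5mC tags in its first 1000 bp in H1ES against 2 of 5 and 4 of 6 in HepG2. Behind that it was methylated in both lines, at 46 of 47 and 29 of 29 tags in H1ES and 34 of 34 and 36 of 36 in HepG2. PCDHA8 held 81.4% and 86.4% in H1ES and 69.6% and 63.3% in HepG2 (log2 odds -1.25, edgeR, adjusted p = 0.0540), which was not called. Its first 1000 bp held 25 of 33 and 9 of 12 5mC tags in H1ES against 13 of 27 and 5 of 12 in HepG2 (edgeR, adjusted p = 0.0845), and its next 1500 bp 10 of 10 and 10 of 10 against 19 of 19 and 14 of 18. Of these 2 members 0 were called by edgeR, 1 had an unadjusted p under 0.05 and 0 were called by DESeq2, among 813 genes of which 45.9% were called lower and 6.89% higher in HepG2.

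**Figure D3:**
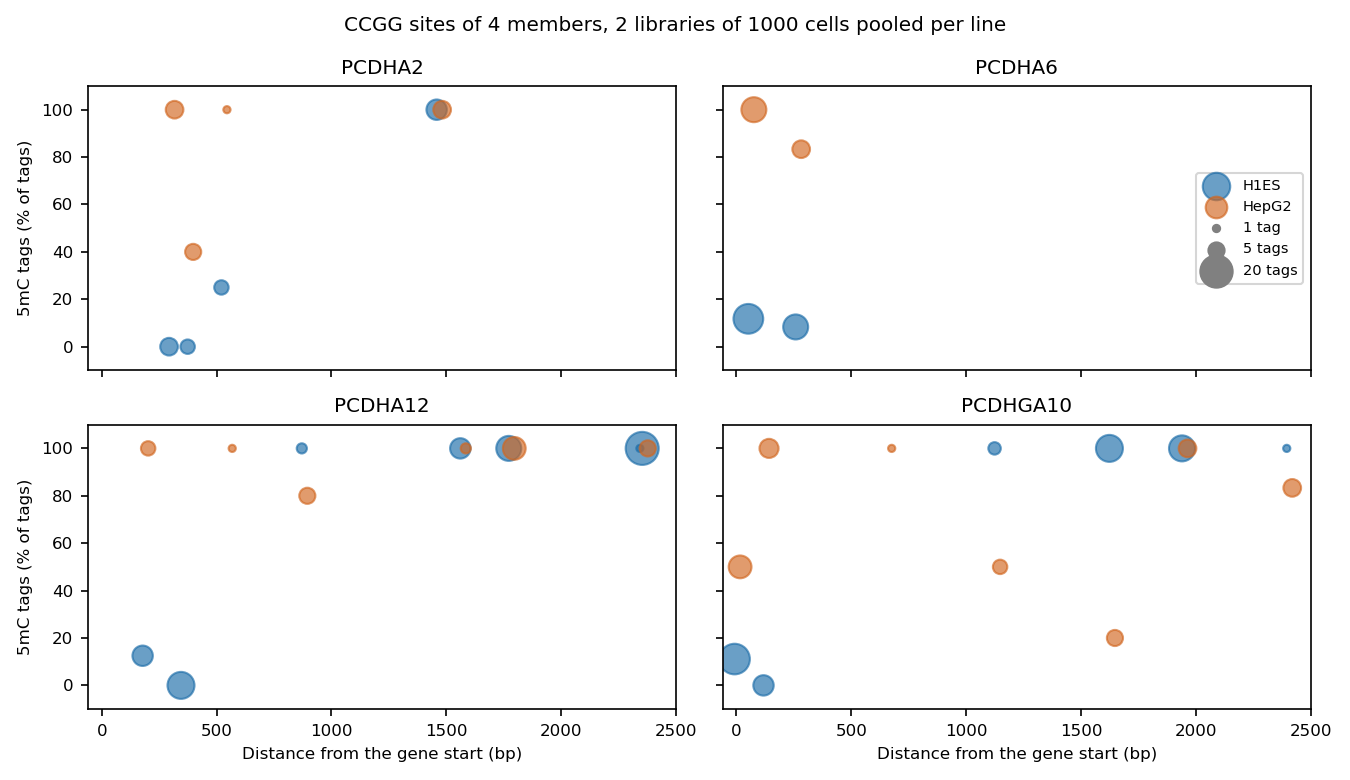
5mC as a percentage of tags (y axis) at each CCGG site with a tag, by distance from the gene start in bp (x axis), in 4 members; both 1000-cell libraries of a line are pooled and the area of a point is proportional to its tags, and the lines are set slightly apart sideways. H1ES sites in the first 600 bp lie at 25% or below and those past 1000 bp at 100%, whereas HepG2 sites in the first 600 bp lie at 40% or above.

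In PCDHG, PCDHGA10 and PCDHGB7 both had a start with more 5mC in HepG2 and a later part with less. The next 1500 bp of PCDHA12 held no such loss, at 42 of 42 pooled 5mC tags in H1ES and 17 of 17 in HepG2. The first 1000 bp of PCDHGA10 held 0 of 14 and 2 of 12 5mC tags in H1ES and 7 of 9 and 6 of 9 in HepG2 (log2 odds 4.76, edgeR, adjusted p = 0.00352). Its next 1500 bp held 21 of 21 and 10 of 10 in H1ES and 7 of 10 and 7 of 11 in HepG2. PCDHGB7 held 0 of 4 and 0 of 3 5mC tags against 1 of 1 and 5 of 5 in its first 1000 bp, and 8 of 8 and 14 of 14 against 1 of 4 and 1 of 10 behind that. Over 2500 bp, PCDHGB7 then read 66.7% and 82.4% in H1ES and 40% and 40% in HepG2, values that mix both parts.

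Of 10 members with 5 tags in every library in the first 1000 bp, edgeR called 2 higher in HepG2 (PCDHA6 and PCDHGA10) and 1 lower (PCDHB6), where 4.73% of 3888 genes were called higher and 18.1% lower. Relative to each library's own odds, 4 were higher and 1 was lower, against 6.07% and 12.5% of the genes. None of these calls of single members, nor any other gene's call at this minimum, survived leaving out 1 library. The adjusted p (edgeR) of PCDHA6 was then 0.159 to 0.242 and that of PCDHGA10 0.159 to 0.287.

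Over the 2500 bp windows, 29 members had 5 tags in every library, a minimum added after the data were seen. There edgeR called 5 lower in HepG2 (PCDHB4, PCDHB6, PCDHGA4, PCDHGB3 and PCDHGA7) and 2 higher (PCDHA6 and PCDHA12), where 25.1% of 8285 genes were called lower and 4.35% higher. DESeq2 called 3 lower and 1 higher, PCDHA12 not among them (adjusted p = 0.0935). Relative to each library's odds edgeR called 3 lower and 4 higher, against 17.7% and 7.24% of the genes, whose median was then -0.25. At 10 tags 17 members were tested, with 4 lower and 1 higher, against 31.3% and 5.57% of 4342 genes. By array, the calls were 0 lower and 2 higher of 10 in PCDHA, 2 lower and 0 higher of 5 in PCDHB, and 3 lower and 0 higher of 14 in PCDHG. The median log2 odds were 0.64 in PCDHA, -3.64 in PCDHB and -3.14 in PCDHG, beside -1.06 over all genes tested, and the difference between arrays was not tested. Both HepG2 libraries lay below both H1ES libraries in 16 of the 29 and above them in 6, against 47.6% and 12.6% of the genes. Without any 1 library edgeR called 0 members and 0 genes, with the lowest adjusted p of a member between 0.0657 and 0.158, although 2136 to 2479 genes had an unadjusted p under 0.05.

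**Figure D4:**
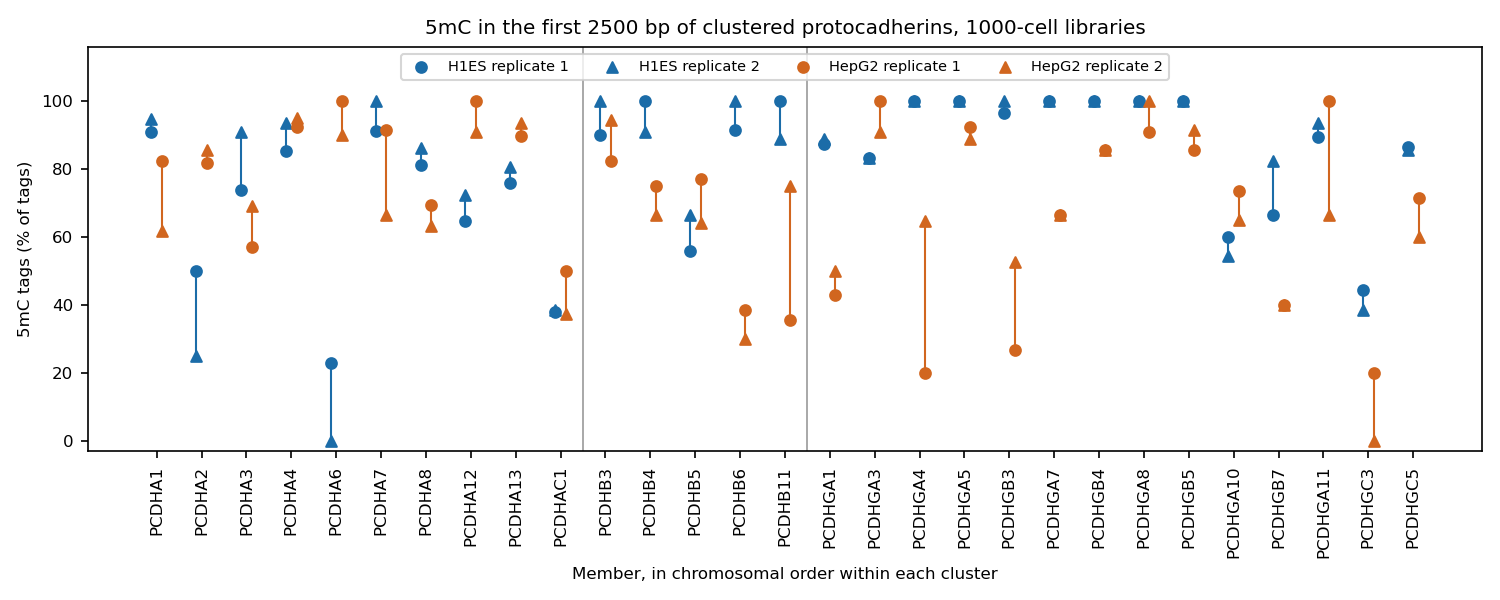
5mC as a percentage of tags (y axis) in the first 2500 bp of the 29 members with at least 5 tags in every 1000-cell library, in chromosomal order (x axis); vertical grey lines part PCDHA, PCDHB and PCDHG, and short lines join the 2 replicates of a line. PCDHA2, PCDHA6 and PCDHA12 lie higher in HepG2, and PCDHGA4, PCDHGB3, PCDHGA7 and PCDHB6 lie lower.

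Members with less 5mC in HepG2 differed in where the difference lay. In PCDHB6 it lay at the start, where a site 65 bp behind it (chr5:141150122) held 9 of 10 and 6 of 6 5mC tags in H1ES and 2 of 10 and 1 of 7 in HepG2, and made up the whole first 1000 bp value of this member (log2 odds -5.75, edgeR, adjusted p = 0.00345; 0.0694 with a replicate block). PCDHB11 held 5 of 5 and 4 of 5 tags in its first 1000 bp in H1ES and 0 of 8 and 0 of 1 in HepG2, while HepG2 held 5 of 6 and 6 of 7 behind it. It was not called over 2500 bp (edgeR, adjusted p = 0.0596), and its HepG2 cells held 3 of 6 5mC tags at the start. PCDHB4 held 27 of 27 and 10 of 11 over 2500 bp in H1ES against 9 of 12 and 8 of 12 (log2 odds -3.64, edgeR, adjusted p = 0.0438). That call was lost with a replicate block (0.0753), in DESeq2 (0.0993) and with relative odds (0.129).

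PCDHGB3 and PCDHGA4 had no tag in their first 1000 bp, so their values come from the next 1500 bp. PCDHGB3 held 27 of 28 and 16 of 16 5mC tags in H1ES and 4 of 15 and 10 of 19 in HepG2 (log2 odds -5.63, edgeR, adjusted p = 4.62e-04). The loss was at the sites 1186 bp (chr5:141371428; 17 of 17 tags against 3 of 13) and 1386 bp (chr5:141371628; 13 of 13 against 6 of 14) behind the start. PCDHGA4 held 21 of 21 and 12 of 12 in H1ES and 2 of 10 and 11 of 17 in HepG2 (edgeR, adjusted p = 0.00230). PCDHGA7 held 12 of 12 and 11 of 11 against 6 of 9 and 8 of 12 (edgeR, adjusted p = 0.0271; 0.0708 with relative odds and 0.0538 in DESeq2). No fold is given for PCDHGA4 and PCDHGA7, because H1ES had 0 tags of another kind there.

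PCDHA3 in HepG2 had a methylated start and little 5mC behind it, with 11 of 11 and 8 of 8 5mC tags in the first 1000 bp and 1 of 10 and 1 of 5 in the next 1500 bp. In H1ES the same parts held 8 of 14 and 6 of 7, then 9 of 9 and 4 of 4. Over 2500 bp, which mixes both parts, it held 73.9% and 90.9% in H1ES and 57.1% and 69.2% in HepG2, both below H1ES but not called (edgeR, adjusted p = 0.320).

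Among the C-type genes, PCDHAC1 showed opposite differences within 1 window. At 673 bp (chr5:140926972) H1ES held 0 of 9 and 0 of 5 5mC tags and HepG2 2 of 2 and 1 of 1, and at 1010 bp (chr5:140927309) H1ES held 3 of 6 and 1 of 3 and HepG2 6 of 6 and 4 of 4. At 1806 bp (chr5:140928105) H1ES held 2 of 3 and 1 of 2 and HepG2 0 of 5 and 1 of 4, and at 2397 bp (chr5:140928696) 3 of 3 and 3 of 3 stood against 0 of 3 and 0 of 7. Over 2500 bp PCDHAC1 therefore read 38.1% and 38.5% in H1ES and 50% and 37.5% in HepG2, which overlap (edgeR, adjusted p = 0.826).

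PCDHAC2 and PCDHGC3 had starts low in 5mC in both H1ES libraries, and few tags there in HepG2. PCDHGC3 held 1 of 11 and 0 of 8 5mC tags in its first 1000 bp in H1ES and 0 of 2 and 0 of 3 in HepG2, and PCDHAC2 held 0 of 4 and 0 of 6 against 2 of 3 and 0 of 3. Behind the start, PCDHGC3 held 7 of 7 and 5 of 5 in H1ES against 2 of 8 and 0 of 2 in HepG2, and PCDHAC2 6 of 6 and 6 of 7 against 0 of 4 and 0 of 1. PCDHGC5 held 86.7% and 85.7% over 2500 bp in H1ES and 71.4% and 60% in HepG2 (edgeR, adjusted p = 0.300). PCDHGC4 held 94.1% and 100% against 62.5% and 40%, from 4 to 17 tags, which was too few for the test.

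The remaining members are given by counts. In 24 of the 53 members at least 1 library had fewer than 5 tags in the 2500 bp window, 3 of them had no tag in a library, and PCDHB8 had no tag in that window in any 1000-cell library. The 6 pseudogenes were not tested. The best covered, PCDHA14, held 16 of 16 and 18 of 18 5mC tags in H1ES and 15 of 17 and 13 of 18 in HepG2, and PCDHGB8P held 21 of 23 and 17 of 17 against 10 of 17 and 4 of 8.

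Outside the windows HepG2 held less 5mC in each of the 5 parts measured, though the 3' end of PCDHG turned to 2.26 relative to the bins. The median bin itself stood at -4.54 as counted and at -1.30 on the relative scale. On that scale the stretches between the windows stood at -1.67 in PCDHA, -1.13 in PCDHB and -0.63 in PCDHG. Those of PCDHA and PCDHB were called and that of PCDHG was not (edgeR, adjusted p of 4.35e-04, 1.80e-04 and 0.0736). The 3' end of PCDHA stood at -2.24 there. Between the windows 5mC made up 96.3% and 97.2% of tags in H1ES and 45.8% and 51.1% in HepG2 in PCDHA, 91.9% and 94.1% against 37.4% and 38.3% in PCDHB, and 95.7% and 95.5% against 58.6% and 60.1% in PCDHG (log2 odds -4.92, -4.39 and -3.89, edgeR, adjusted p at most 2.44e-37). The 3' end of PCDHA, chr5:140968976-141012347, had the widest gap of all parts, with 83.7% and 91.1% in H1ES and 14.3% and 10.5% in HepG2 (log2 odds -5.49, edgeR, adjusted p = 1.25e-43). The 3' end of PCDHG, chr5:141491581-141512975, held 74.6% and 76.5% against 59.6% and 61.1% (log2 odds -1.01, edgeR, adjusted p = 0.00507; 0.0590 without HepG2 library 1).

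The bins of 100 kb place these values on the chromosome. The bin chr5:140800001-140900000, which holds most of the PCDHA variable exons, carried 82.4% and 83.5% 5mC in H1ES, at percentiles 3.37 and 3.17 of all bins in those libraries. In HepG2 it carried 73.2% and 76.1%, at percentiles 74.2 and 76.2. The next bin, chr5:140900001-141000000, was as low in H1ES (81.7% and 83.2%, percentiles 2.98 and 3.04) but also low in HepG2 (25.6% and 26.4%, percentiles 15.1 and 15.02). Of 9 bins over the arrays and their edges, edgeR called 8 lower in HepG2 and 1 higher, where 90.7% of all 26772 bins were called lower and 0.885% higher. The 1 higher was the bin chr5:141500001-141600000 (88.5% and 91.6% against 91.8% and 96.2%, log2 odds 0.81, edgeR, adjusted p = 0.0373). That last call was lost without H1ES library 1 (0.342), without HepG2 library 2 (0.454), in DESeq2 (0.137) and with a replicate block (0.0582). The call of chr5:140800001-140900000 (log2 odds -0.72, edgeR, adjusted p = 0.00185) was lost without HepG2 library 1 (0.0514) and turned to 2.55 relative to each library's odds.

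5hmC, the oxidised form of 5mC, was scarce in the arrays and nearly absent in HepG2. Over all autosomal tags it was also scarce, at 1.69% and 1.52% in the H1ES libraries of 1000 cells and 0.221% and 0.277% in those of HepG2. Pooled over both libraries of H1ES it made up 25 of 1042 tags in PCDHA (2.40%), 15 of 762 in PCDHB (1.97%) and 30 of 1293 in PCDHG (2.32%). In HepG2 it made up 1 of 906, 1 of 616 and 2 of 1031 tags. By library the shares were 2.63% and 2.07% against 0.215% and 0.0% in PCDHA, 2.56% and 1.02% against 0.0% and 0.357% in PCDHB, and 2.33% and 2.299% against 0.0% and 0.394% in PCDHG. The log2 odds of 5hmC were -4.17, -3.33 and -3.45 (edgeR, adjusted p of 4.36e-04, 0.0209 and 5.13e-04), where 19.6% of the 26772 bins were called lower and 0.00747% higher. Relative to each library's odds of 5hmC over all bins no array was called (edgeR, adjusted p = 0.933 for each). The call of PCDHA was lost without H1ES library 1 (0.0582), and that of PCDHB without H1ES library 1 (0.612), H1ES library 2 (0.0556) or HepG2 library 1 (0.194), with a replicate block (0.148) and in DESeq2 (0.112). The exact permutation test, two-sided, gave 0.333 for each array.

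Within the H1ES arrays, the 3' end of PCDHG held the highest pooled share of 5hmC, 13 of 207 tags (6.28%; 7 of 122 and 6 of 85 by library), against 3 of 388 (0.773%) in the next 1500 bp of the PCDHG members. The pooled H1ES cells did not repeat this, with 1 of 93 tags (1.08%). In HepG2 that 3' end held 0 of 161 tags, which allows a share of up to 1.86%. The 3' end of PCDHA held 7 of 129 and 1 of 79 tags in the H1ES libraries, a spread as large as the share itself.

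Single cells gave the same order of the lines over the arrays. Over the 3 arrays together, 5mC made up 87.1% to 91.7% of tags in the 5 H1ES cells (median 88.6%, 204 to 400 tags a cell) and 54.6% to 59.6% in the 5 HepG2 cells (median 57.7%, 133 to 577 tags). The cells of the lines did not overlap, and no test was made because each library is 1 cell. In the 3' end of PCDHA the H1ES cells held 72.7% to 94.7% and the HepG2 cells 12.8% to 37.5%. In the first 1000 bp of PCDHA the cells overlapped, at 36.4% to 68.8% in H1ES and 53.8% to 76.9% in HepG2, with 50.6% of 87 pooled tags against 62.0% of 137.

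**Figure D5:**
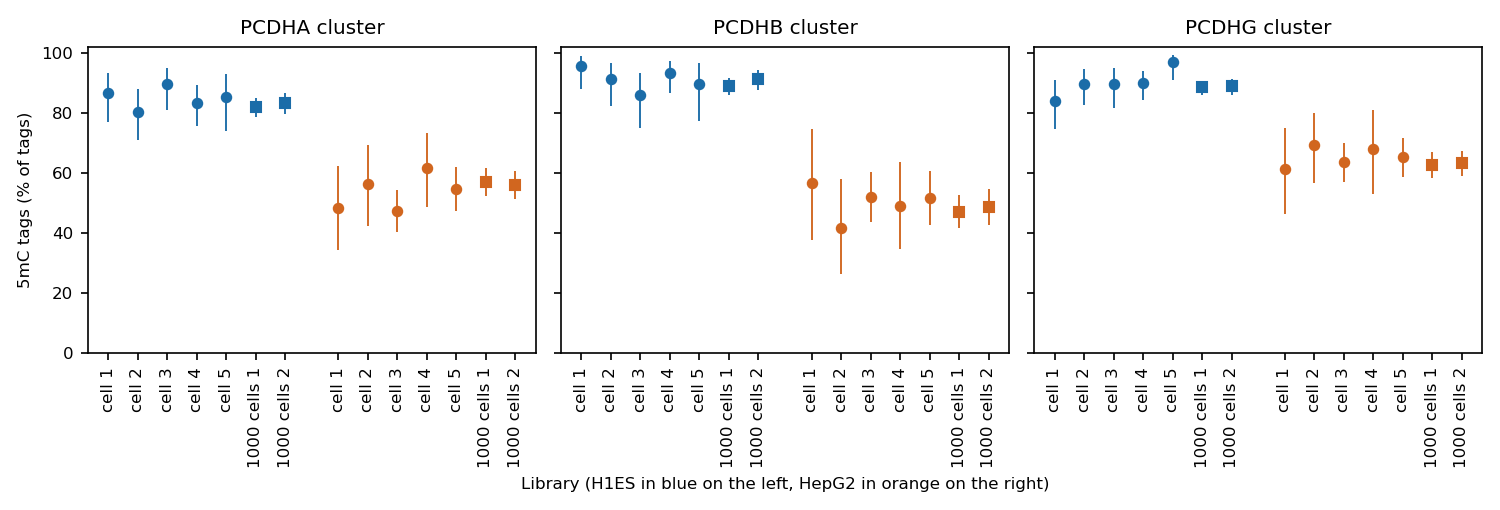
5mC as a percentage of tags over each array (y axis) in every single cell and 1000-cell library (x axis), H1ES in blue and HepG2 in orange; bars are exact 95% binomial intervals, which cover counting error only. All H1ES libraries lie above all HepG2 libraries in each array.

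Member by member, the pooled cells repeated several differences at the starts. In the first 1000 bp, PCDHA2 held 0 of 11 5mC tags in H1ES cells and 7 of 12 in HepG2 cells, PCDHA12 held 0 of 7 and 9 of 9, PCDHA10 held 0 of 3 and 8 of 12, and PCDHGA10 held 0 of 10 and 8 of 10. PCDHA6 held 1 of 6 and 5 of 7. Other starts did not repeat: PCDHGC3 held 4 of 6 5mC tags in H1ES cells against 1 of 19 in the 1000-cell libraries, and PCDHAC1 held 2 of 3 against 0 of 14. PCDHA13 held 8 of 8 in H1ES cells against 18 of 29, and PCDHB6 held 4 of 7 in HepG2 cells against 3 of 17, with 6 of 8 in H1ES cells. At the PCDHA12 site 357 bp behind the start (chr5:140875665), 4 of 4 H1ES cells with a tag were unmethylated and 3 of 3 HepG2 cells with a tag carried 5mC.

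Within a cell, HepG2 mixed both kinds of tag at a site more often. Among sites with at least 2 tags in a cell, 17 of 289 in H1ES cells held tags of both kinds (5.88%, exact 95% interval 3.46% to 9.25%) and 129 of 394 in HepG2 cells (32.7%, 28.1% to 37.6%). These intervals take sites as independent and cover counting error only, and HepG2 cells 3 and 5 held 167 and 149 of the 394. By cell, the share was 4.85% to 8% in H1ES and 25% to 39.3% in HepG2. The deepest H1ES cell had 103 such sites (4.85% mixed) and the shallowest HepG2 cell 20 (25% mixed). The part of overall 5mC or copy number in this difference was not tested. Of member windows with at least 2 tags in a cell, 95 of 148 were all 5mC and 5 all unmethylated in H1ES, against 40 and 9 of 140 in HepG2.

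Beyond the arrays, 6 of 10 non-clustered protocadherins, which stand alone and lack the promoter choice, had enough tags over 2500 bp at the 5-tag minimum. Of these edgeR called PCDH1 and PCDH12 lower in HepG2 and PCDH8 higher, against the 25.1% and 4.35% given above. PCDH12 fell from 88.6% and 82.8% in H1ES to 23.7% and 37.5% in HepG2 (adjusted p = 6.5e-05). PCDH8 rose from 40% and 40% to 81.8% and 90% (adjusted p = 0.0463). Of 12 regulators of the arrays, 5 were measured and 1 was called, the maintenance methyltransferase DNMT1, with 81.5% and 88.9% in H1ES against 38.9% and 27.3% in HepG2 (adjusted p = 0.00725). CTCF was not called (71.4% and 83.3% against 7.69% and 50%, adjusted p = 0.0640). Of 8 measured neighbours on chromosome 5 that are no members, PCDH1 among them, 3 were lower in HepG2 and 0 higher.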

How the data were processed

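The 14 human libraries of the series' 19 were used. Mouse was not analysed here. The build hg38 and the tools Bowtie2 2.3.4.1, cutadapt 1.5 and UMI-tools 0.5.4 are named per the submitters' processing notes, and how each was used is not given in the sources used here. The deposited tables give, for each CCGG site, 3 fraction values (unmethylated, 5mC, 5hmC) and the counts of tags. They have no header, and the kinds were read by column position, not chosen site by site. The column of 5mC was taken to be the one that is larger as a whole of the 2 modified kinds, so every 5hmC value rests on that. Fraction times count was whole within 0.00141 at every site, which gave the tags of each kind.

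Members were placed by the RefSeq tables of GRCh38.p14. Members without a promoter entry were given the strand of the other 47. No exon annotation was used, so the first 2500 bp stand for the variable exon. Members and gene lists were chosen with earlier results of these data known.

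edgeR 4.0.16 in R 4.3.3 tested 5mC or 5hmC tags against the other tags (quasi-likelihood, 1 term per library, Benjamini-Hochberg over all autosomal windows or bins, threshold 0.05), with at least 20 tags in every 1000-cell library. The effect is the log2 odds, HepG2 over H1ES. Scripts were tested on simulated data. Pooled shares were compared by exact permutation (Python 3.11.15, SciPy 1.17.1). Single cells were described without a test. Binomial intervals (95%, exact Clopper-Pearson) and upper limits for 0 tags (3 over the total) reflect counting error alone.

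The rule for named genes took the 3 largest and 3 smallest differences per array among members with 20 tags in every library, which left PCDHA4 and PCDHA8, and the 5 C-type genes. The alternatives were relative odds, DESeq2 1.42.0, other tag minimums and windows, the reference tags, a replicate block and each library left out. Added after seeing the data were the 5-tag minimum, the 1000 bp split, and arrays or their parts as features beside bins or genes. Figures were drawn with matplotlib 3.10.9.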

Additional observations from a re-analysis of the deposited data

Results flagged for a closer look

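Of 14 groups of 5 single cells checked (each array, whole and first 2500 bp, and the 3 arrays together, in each line), 1 held a cell far from the others. In the first 2500 bp of PCDHB, H1ES cell 3 carried 69.0% 5mC, while the nearest of the other 4 cells carried 90.5%, a gap of 0.948 of the whole range. This cell had 29 tags there. Chance marks about 1 in 20 such groups, and the cause was not tested.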

How the results depend on the processing

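Depth limits single members most: 24 of 53 had fewer than 5 tags in some 1000-cell library. For genes' first 2500 bp, edgeR called 373 lower and 56 higher at 20 tags. The counts were 231 and 119 relative to each library's odds, 1359 and 242 at 10 tags, 1 and 0 at 50 tags, 21 and 3 over 1000 bp, and 1502 and 175 over 5000 bp. DESeq2 called 36 higher. At the added minimum of 5 tags they were 2080 and 360, or 1466 and 600 relative, 1537 and 231 in DESeq2, and 0 and 0 without any 1 library. At 20 tags, leaving out 1 library gave 249 to 372 lower and 36 to 60 higher, the 36 without HepG2 library 1. For bins, the 5mC counts were 24273 and 237, and 14702 and 7130 relative. Without 1 library they were 23716 to 24040 lower and 157 (without HepG2 library 2) to 241 higher. Bins lower in 5hmC numbered 5248, against 0 relative and 2806 in DESeq2 (1 higher), and 1008 to 3576 lower and 0 to 1 higher without 1 library, the 1008 without H1ES library 1.

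Relative odds turned the sign of 5mC in PCDHA whole (1.40) and its next 1500 bp (0.57), in PCDHB first 1000 bp (1.19), next 1500 bp (1.67) and first 2500 bp (1.51), in PCDHG whole (1.06), first 2500 bp (1.52) and 3' end (2.26), in PCDHB3 (0.028) and in the bins starting at 140800001 (2.55), 141100001 (0.32) and 141400001 (1.302). For 5hmC they turned PCDHB (0.14) and PCDHG (0.10) first 2500 bp and the bins starting at 140700001 (2.17), 141100001 (0.10), 141300001 (0.91) and 141500001 (0.40). Signs also turned when 1 library was left out. PCDHAC1 ranged from -0.044 (without HepG2 library 1) to 0.68, PCDHB3 from -3.94 to 0.25 (without HepG2 library 1), and PCDHGA11 from -2.33 to 3.29 over 2500 bp and from -2.73 to 2.72 over 1000 bp (the higher values without HepG2 library 2). PCDHG first 1000 bp ranged from -0.31 to 0.54 beside bins and from -0.31 to 0.53 beside genes, with negative values without H1ES library 2 or HepG2 library 1. The cause was not tested.

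The pooled 5mC differences of PCDHA, PCDHB and PCDHG were -29.8, -39.3 and -23.3 percentage points as means of site fractions, and 0.0570, -57.8 and -25.2 over sites with 5 tags in every library. For 5hmC, PCDHA gave -1.51 as a mean of site fractions, and the sites with 5 tags gave -0.568, -0.806 and -1.83. Over sites with 2 tags in a cell, H1ES cells 2 and 3 held 91.2% and 92.4% 5mC and HepG2 cell 1 held 40.5%.

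Replicate numbers did not pair the libraries: deviations of same-numbered libraries correlated over 26772 bins with r = 0.00918. With a replicate block, genes' first 2500 bp gave 348 lower and 52 higher at 20 tags and 1929 and 326 at 5 tags, and bins gave 24261 and 221 for 5mC and 2075 and 0 for 5hmC.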
